A study of Mus musculus with 9 samples.

Results

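The genes described here are the glucocorticoid receptor and 5 of the genes best known to be switched on by it, measured in naive CD4+ T cells (TN cells, T helper cells not yet primed by antigen) from mouse spleen. They were chosen by name, with earlier results of these data known. They are Nr3c1, which encodes the receptor, and its targets Tsc22d3, Fkbp5, Sgk1, Klf9 and Zbtb16, 6 of 55487 genes. Of the 6, 5 had enough reads to be tested and Zbtb16 did not. The study asks what inhibition of IL-1b does to these cells. All mice were wild type on the C57BL6/J strain. The first group received an antibody that neutralises IL-1b, a cytokine of inflammation, for 10 days in a row. The second received MCC950, a drug-like blocker of NLRP3, on whose inflammasome the maturation of IL-1b depends, also for 10 days in a row. The third group was untreated. Each group has 3 libraries of polyadenylated RNA, and the labels used here give no dose, sex, age or control injection. Whether each library is a mouse of its own is not stated, so p-values rest on the variation among these libraries alone, some or all of which could be technical.

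Glucocorticoids, in mice mainly corticosterone, enter the cell and bind a receptor held ready in the cytoplasm by the chaperone HSP90 and its co-chaperones. The receptor with its ligand moves into the nucleus, binds DNA at inverted copies of a short motif and raises or lowers nearby genes, and it also restrains NF-kB and AP-1. In T cells it is known for limiting cytokine production, for driving the death of thymocytes and for setting the daily traffic of T cells between blood and lymphoid organs. Several of its targets feed back on it: FKBP5 lowers the receptor's affinity for its ligand, GILZ (the product of Tsc22d3) binds NF-kB and AP-1, and KLF9 represses a share of the same genes.

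The receptor's motif is shown here where RefSeq gives a start of one of the targets, because it is the sequence through which the receptor reaches its targets. In the 250 bases before each of 32851 RefSeq starts (GRCm38.p6, the same coordinates as mm10), the motif AGAACA, read on both strands, occurred in 5284, or 16.1%. The complete element, AGAACA and its reverse complement TGTTCT with 3 bases between them, occurred in 3, or 0.00913%. One of those 3 lies before a start of Sgk1. RefSeq starts matched 4 of the members, Sgk1, Tsc22d3, Fkbp5 and Klf9. In the lines that follow, each read 5′ to 3′ on the strand of its gene, capitals mark AGAACA or TGTTCT.

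Sgk1, chr10:21993640-21993889, plus strand, with the complete element: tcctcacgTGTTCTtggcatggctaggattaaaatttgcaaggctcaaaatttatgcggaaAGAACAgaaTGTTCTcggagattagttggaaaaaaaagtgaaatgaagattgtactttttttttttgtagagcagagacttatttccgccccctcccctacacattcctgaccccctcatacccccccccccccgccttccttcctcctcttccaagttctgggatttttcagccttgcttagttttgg
Tsc22d3, chrX:140600660-140600772, minus strand, the stretch of the window that holds no annotated exon: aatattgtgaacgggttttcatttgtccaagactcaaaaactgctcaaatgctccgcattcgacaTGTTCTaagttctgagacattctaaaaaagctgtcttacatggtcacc
Klf9, chr19:23140976-23141225, plus strand: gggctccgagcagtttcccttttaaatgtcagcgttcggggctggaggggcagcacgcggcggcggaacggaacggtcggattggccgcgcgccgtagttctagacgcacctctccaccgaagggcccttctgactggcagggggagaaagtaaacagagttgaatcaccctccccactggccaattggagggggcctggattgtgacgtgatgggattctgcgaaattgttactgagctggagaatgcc
Fkbp5, chr17:28486150-28486399, minus strand: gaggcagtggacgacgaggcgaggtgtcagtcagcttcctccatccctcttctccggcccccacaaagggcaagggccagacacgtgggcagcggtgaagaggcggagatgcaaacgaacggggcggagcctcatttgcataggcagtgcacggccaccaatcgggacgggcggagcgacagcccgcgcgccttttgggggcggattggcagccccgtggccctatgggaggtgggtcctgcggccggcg

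The Sgk1 window held the motif 3 times, once alone and once as the inverted pair, and the Tsc22d3 stretch held it once. These were not the only windows of either gene. Of the 6 Sgk1 windows 3 held no motif and 2 held it once, and of the 3 Tsc22d3 windows 2 held none. The single windows of Klf9 and Fkbp5 held none, which says only that these letters are not in these windows. The cAMP response element TGACGTCA, read on both strands, was present in 1.55% of all windows and in none of those of the members. These matches are a description of the sequence, not of binding, which was not measured.

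The 9 libraries held between 14775375 and 21394797 expected counts. The labelled cell type showed in its defining genes: Cd4 averaged 903 ± 6.98, 823 ± 5.25 and 850.0 ± 9.73 CPM (counts scaled to a common library total) in the anti-IL-1b, MCC950 and untreated groups (SD, n = 3 each). The 12 naive CD4 T cell markers together ran from 8719 to 8805 CPM with anti-IL-1b, from 8204 to 8282 with MCC950 and from 8619 to 8709 in untreated libraries. Markers of other cells moved with treatment. The 18 B cell markers summed to 502 to 520 CPM with anti-IL-1b and 492 to 517 with MCC950, against 326 to 347 in untreated libraries. The 16 neutrophil markers summed to 37.9 to 40.0 and 20.4 to 24.4 CPM in the inhibitor groups, against 3.66 to 4.02 in untreated libraries, where 9 of them were at 0, among them S100a8, Ly6g and Camp. The 16 monocyte, macrophage and dendritic cell markers summed to 22.2 to 26.0 and 23.5 to 27.3 CPM, against 9.63 to 11.0, and the 12 CD8 and natural killer cell markers to 96.7 to 106 and 99.5 to 105, against 66.5 to 73.9. The 10 red cell and platelet markers summed to 7.76 to 8.64 and 9.82 to 11.7 CPM, against 2.13 to 3.60. The 12 activated and memory T cell markers summed to less with the inhibitors, at 202 to 210.4 CPM with anti-IL-1b and 199 to 203 with MCC950, against 581 to 613 in untreated libraries. Most of that gap was Cd69 (named after its values were seen), at 64.0 and 56.0 CPM, against 395 CPM. Of the 10 tested markers of the list 4 were lower and 1 higher with anti-IL-1b (median log2 fold change -0.19). With MCC950 4 were lower and 2 higher (median 0.02). Over all tested genes 18.5% were lower and 15.4% higher with anti-IL-1b, and 19.1% lower and 17.7% higher with MCC950. The 25 immediate early and heat shock genes also summed to less, at 4493 to 4791 and 5058 to 5199 CPM, against 23505 to 23832. Il1b, whose protein and not RNA the antibody targets, averaged 6.18 CPM with anti-IL-1b and 2.38 CPM with MCC950 and was at 0 in untreated libraries. The part of these differences in the results that follow was not tested. In bulk RNA, fewer cells of a type and less RNA per cell cannot be told apart.

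Both inhibitors went with lower RNA of the receptor and of its targets Tsc22d3, Sgk1 and Klf9, while Fkbp5 did not fall. With anti-IL-1b, 4 of the 5 tested members fell and none rose at an adjusted p of 0.05 (edgeR's quasi-likelihood test, Benjamini-Hochberg adjustment over 13374 genes), where 18.5% of all tested genes fell and 15.4% rose. With MCC950, the same comparison found 4 lower and 1 higher, where 19.1% of all tested genes fell and 17.7% rose. The median log2 fold change of the 5 members was -0.92 with anti-IL-1b and -0.78 with MCC950, against 0.00 and 0.01 over all tested genes. Members and lists were chosen with earlier results of these data known. Their contrasts with all tested genes are therefore a description and not a test. Between the inhibitors, 1 member was lower with anti-IL-1b and 1 higher, where 7.11% of all tested genes were lower and 6.13% higher. The comparisons with untreated libraries share those 3 libraries, so the likeness of their results is not independent. Counts were scaled by the trimmed mean of M values (TMM). Scaling by library totals instead moved the median of all genes by 0.13 log2 units with anti-IL-1b and by 0.11 with MCC950, and TPM (a transcript measure that corrects for gene length) moved it by 0.15 and 0.09.

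**Figure D1:**
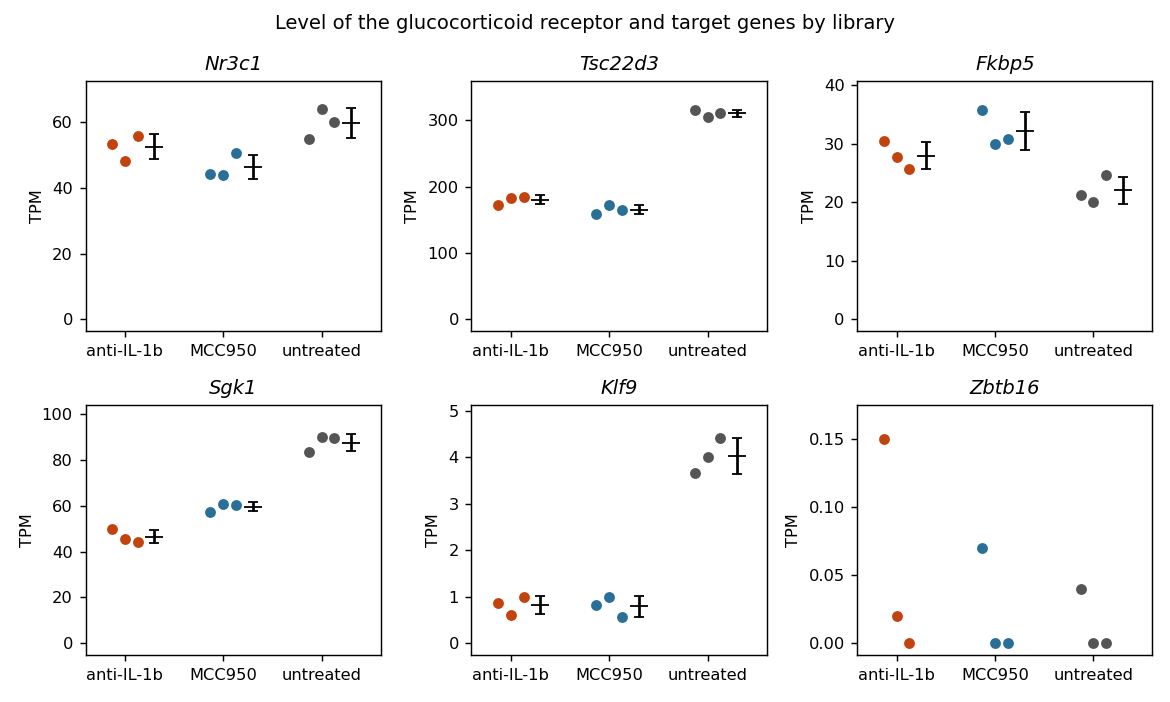
TPM (vertical axis, from just under 0) of each of the 6 genes in every library, with anti-IL-1b, MCC950 and untreated libraries from left to right; points are libraries and the bars beside them the mean and SD (n = 3), left out for Zbtb16. Tsc22d3, Sgk1 and Klf9 lie lower in all 6 inhibitor libraries than in the 3 untreated ones, Fkbp5 lies higher, Nr3c1 with anti-IL-1b touches the untreated range, and Zbtb16 has no more than 0.150 TPM in any library.

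The order of the genes by TPM was the same in the MCC950 and untreated groups: Tsc22d3, Sgk1, Nr3c1, Fkbp5, Klf9 and Zbtb16, with no overlap between neighbours from Tsc22d3 to Zbtb16. Tsc22d3 led at 158 to 172 TPM with MCC950, against 305 to 315 TPM in untreated libraries. Sgk1 came next at 57.3 to 60.9 TPM with MCC950, against 83.4 to 90.0 TPM in untreated libraries. In the anti-IL-1b group Sgk1, at 44.2 to 49.7 TPM, overlapped Nr3c1, at 48.4 to 56.0 TPM, and the rest of the order was unchanged.

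Nr3c1 (chromosome 18, 39410545 to 39519421, minus strand, mm10) is the receptor itself, and its RNA fell modestly with both inhibitors. It had 162, 166 and 167 CPM with anti-IL-1b, 144, 152 and 152 CPM with MCC950, and 214, 193 and 209.8 CPM in untreated libraries. All inhibitor libraries lay below all untreated ones, and the MCC950 libraries below the anti-IL-1b ones. The log2 fold change over untreated was -0.32 ± 0.04 (SE) with anti-IL-1b, a change of -19.7% (edgeR adjusted p = 4.70e-08), and -0.46 ± 0.04 with MCC950, a change of -27.3% (edgeR adjusted p = 4.90e-12). They were smaller than those of Tsc22d3, Sgk1 and Klf9 and larger than those of Fkbp5, and stand at percentiles 15.9 and 11.3 of the fold changes of all tested genes. On the log2(TPM + 1) scale the anti-IL-1b difference was -0.18 and did not pass (limma adjusted p = 0.149): in TPM the anti-IL-1b libraries had 53.5, 48.4 and 56.0, overlapping the untreated ones at 55.0, 64.1 and 60.1. Nr3c1 was 0.14 ± 0.04 log2 units higher with anti-IL-1b than with MCC950 (edgeR adjusted p = 0.0160), but that call was lost without anti-IL-1b replicate 2 (0.14, adjusted p = 0.0555), anti-IL-1b replicate 3 (0.13, 0.0626) or MCC950 replicate 1 (0.12, 0.109).

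Tsc22d3 (chromosome X, 140539528 to 140600659, minus strand) encodes GILZ, a leucine zipper protein that carries much of the anti-inflammatory action of glucocorticoids in T cells, and by TPM it was the highest member in every library. Its level was 209, 223 and 225 CPM with anti-IL-1b, 201, 209 and 207 CPM with MCC950, and 421, 411 and 410.2 CPM in untreated libraries. The inhibitor libraries did not approach the untreated ones, and the 2 inhibitor groups met at 209 CPM. The log2 fold change over untreated was -0.92 ± 0.03 with anti-IL-1b (a change of -47.1%, edgeR adjusted p = 8.09e-24) and -1.01 ± 0.03 with MCC950 (-50.3%, edgeR adjusted p = 3.12e-25). Between the inhibitors the difference was 0.09 ± 0.04 (edgeR adjusted p = 0.0791), and it passed without anti-IL-1b replicate 1 (0.12, adjusted p = 0.0183).

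Sgk1 (chromosome 10, 21882184 to 21999903, plus strand), a kinase that controls ion channels and FOXO factors and in T cells takes part in helper fate, separated the inhibitors. It had 52.9, 50.7 and 57.5 CPM with anti-IL-1b, 67.8, 71.7 and 70.3 CPM with MCC950, and 121, 111 and 127 CPM in untreated libraries. The 3 groups did not overlap. Sgk1 fell by 1.16 ± 0.06 log2 units with anti-IL-1b (a change of -55.2%, edgeR adjusted p = 5.41e-19) and by 0.78 ± 0.06 with MCC950 (-41.6%, edgeR adjusted p = 4.87e-14). The fall was deeper with anti-IL-1b than with MCC950, by -0.38 ± 0.06 (edgeR adjusted p = 1.89e-05), and this difference passed in all 21 alternatives run, at -0.43 to -0.34.

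Klf9 (chromosome 19, 23141226 to 23168134, plus strand), a zinc finger repressor that glucocorticoids and thyroid hormone raise in many tissues, had the largest fold change of the tested members and a low level. It had 42, 27 and 30 expected counts with anti-IL-1b, 42, 56 and 30 with MCC950, and 190, 258 and 269 in untreated libraries. Scaled, that was 2.05 ± 0.359 CPM with anti-IL-1b, 2.35 ± 0.662 with MCC950 and 12.8 ± 1.25 in untreated libraries (SD, n = 3 each). The inhibitor groups overlapped each other and lay far below the untreated one. The log2 fold change over untreated was -2.63 ± 0.22 with anti-IL-1b (a change of -83.9%, edgeR adjusted p = 1.56e-12) and -2.44 ± 0.22 with MCC950 (-81.6%, edgeR adjusted p = 5.34e-12), at percentiles 0.793 and 0.897 of all tested genes. On the log2(TPM + 1) scale, which compresses the differences of low genes, they were smaller, with -1.47 the nearest to 0 over all alternatives with anti-IL-1b and -1.49 with MCC950. The inhibitors did not differ detectably at this depth (-0.19 ± 0.25, edgeR adjusted p = 0.703).

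Fkbp5 (chromosome 17, 28399094 to 28517527, minus strand) encodes FKBP51, the HSP90 co-chaperone that holds the receptor in a state of low affinity and is itself one of the classical targets. It had 54.9, 57.0 and 52.3 CPM with anti-IL-1b, 55.6, 58.2 and 57.3 CPM with MCC950, and 52.0, 48.6 and 52.0 CPM in untreated libraries. All inhibitor libraries lay above all untreated ones, by a small margin. The log2 fold change over untreated was 0.11 ± 0.07 with anti-IL-1b (edgeR adjusted p = 0.221) and 0.17 ± 0.07 with MCC950 (edgeR adjusted p = 0.0430). The MCC950 call was lost without MCC950 replicate 2 (0.15, adjusted p = 0.121), MCC950 replicate 3 (0.17, 0.0900), untreated replicate 2 (0.13, 0.166) or untreated replicate 3 (0.18, 0.0564). Per length the difference was larger: Fkbp5 had 30.4, 27.7 and 25.7 TPM with anti-IL-1b and 35.8, 29.9 and 30.7 TPM with MCC950, against 21.3, 20.1 and 24.6 TPM in untreated libraries, and with MCC950 it reached 0.54 log2 units, the highest of its alternatives. Small genes annotated inside Fkbp5 held at most 71 counts over the 9 libraries.

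Zbtb16 (chromosome 9, 48654297 to 48836222, minus strand) encodes PLZF, which glucocorticoids raise in many cells and which innate-like T cells carry by lineage. It had 4, 1 and 0 counts with anti-IL-1b, 2, 0 and 0 with MCC950 and 1, 0 and 0 in untreated libraries, 8 in all. With 3 counts taken as the limit that a count of 0 allows, a library without a count could have held 0.140 to 0.203 CPM unseen, by library totals. This limit covers counting error only. The highest level seen was 0.233 CPM (TMM-scaled), in anti-IL-1b replicate 1. No difference was detectable at this depth and none was tested. The 18 innate-like T cell markers, of which Zbtb16 is one, summed to 109.8 to 118 CPM with anti-IL-1b and 109 to 112 with MCC950, against 121 to 126 in untreated libraries. Il18r1, named after its values were seen, makes up most of that sum and fell (log2 fold changes -0.32 and -0.30). Of the 10 tested markers of the list 2 rose and 1 fell with each inhibitor, and the medians were 0.33 and 0.52. Over all tested genes 15.4% rose and 18.5% fell with anti-IL-1b, and 17.7% rose and 19.1% fell with MCC950.

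**Figure D2:**
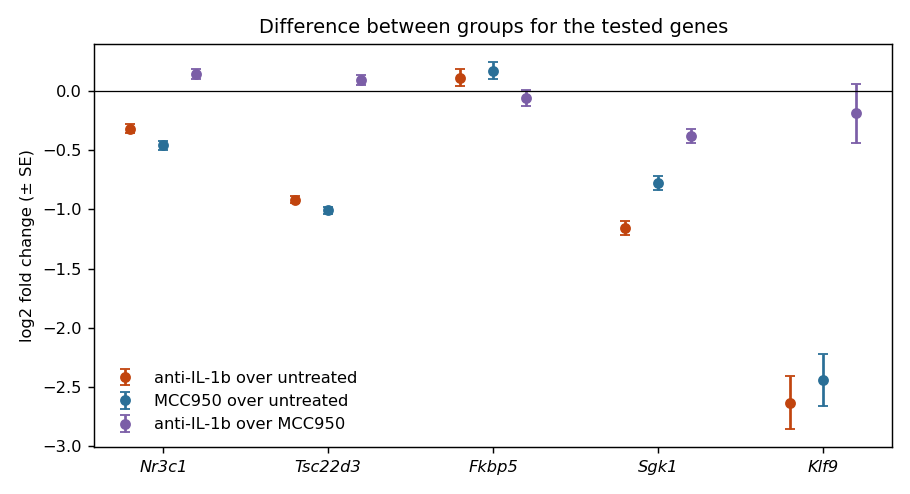
Log2 fold change (vertical axis, with bars of 1 SE from the edgeR fit) of the 5 tested genes for anti-IL-1b over untreated, MCC950 over untreated and anti-IL-1b over MCC950, from left to right within each gene. The first pair lies below 0 for Nr3c1, Tsc22d3, Sgk1 and Klf9 and slightly above 0 for Fkbp5; between the inhibitors Sgk1 (-0.38) lies farthest below 0 beyond its error and Nr3c1 (0.14) above it.

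Set against the receptor within each library, the targets differed in direction. The ratio of Tsc22d3 to Nr3c1 TPM averaged 3.44 ± 0.298 with anti-IL-1b, 3.56 ± 0.323 with MCC950 and 5.22 ± 0.490 in untreated libraries (SD, n = 3 each). The ratio of Sgk1 to Nr3c1 averaged 0.886 ± 0.0832, 1.29 ± 0.0948 and 1.47 ± 0.0597 in the same groups, and that of Fkbp5 to Nr3c1 0.533 ± 0.0644, 0.696 ± 0.103 and 0.370 ± 0.0504. Tsc22d3 and Sgk1 had lower ratios with the inhibitors and Fkbp5 higher ones, and no inhibitor library overlapped the untreated range. FKBP52, encoded by Fkbp4, competes with FKBP51 on HSP90 and favours the active receptor. Fkbp4 fell, at 154 ± 5.65 CPM with anti-IL-1b and 179 ± 8.95 CPM with MCC950, against 209 ± 7.36 CPM in untreated libraries (log2 fold changes -0.45 ± 0.04 and -0.22 ± 0.04, edgeR adjusted p = 1.71e-11 and 2.88e-05). The ratio of Fkbp5 to Fkbp4 TPM was 0.255, 0.246 and 0.218 with anti-IL-1b and 0.261, 0.221 and 0.240 with MCC950, against 0.148, 0.127 and 0.160 in untreated libraries, with no overlap between either inhibitor group and the untreated one.

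RSEM also gives each gene a mean transcript length, weighted by the estimated share of its transcripts, and this was compared over libraries by exact two-sided permutation tests, in which 3 against 3 libraries cannot go below p = 0.1. Of 10 such comparisons over the 5 tested members, only Fkbp5 with MCC950 had groups that did not overlap. Its mean length was 2442, 3019 and 2903 bases with MCC950, against 3504, 3472 and 3049 bases in untreated libraries, a difference of -554 bases (exact permutation p = 0.1, the smallest possible, adjusted p = 1.00 over the 10). With anti-IL-1b it was 2927, 3315 and 3279 bases, overlapping the untreated libraries. A shorter mean length gives a higher TPM for the same number of reads. The lengths of Nr3c1, Tsc22d3 and Sgk1 overlapped between groups. Klf9 stood at 4486 bases in every library but anti-IL-1b replicate 3, at 3246 bases. Fkbp5 has 15 annotated transcripts, Sgk1 13, Nr3c1 9, Tsc22d3 6, and Klf9 and Zbtb16 2 each.

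**Figure D3:**
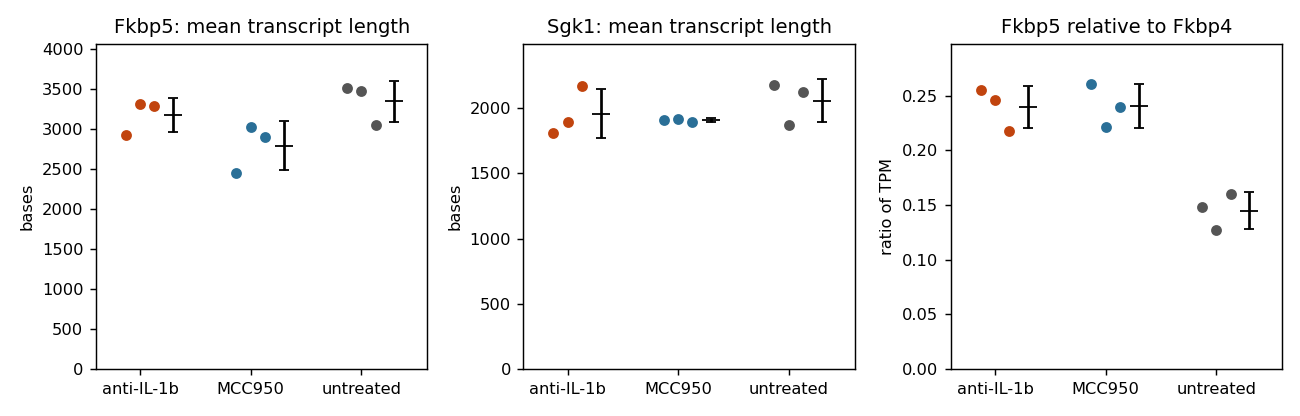
Mean transcript length in bases of Fkbp5 and Sgk1, and the ratio of Fkbp5 to Fkbp4 TPM, in every library of the anti-IL-1b, MCC950 and untreated groups from left to right; points are libraries, bars the mean and SD (n = 3). The MCC950 libraries have the shortest Fkbp5 mean length (2788 ± 305 bases, against 3342 ± 254 in untreated libraries), Sgk1 lengths overlap, and the ratio lies higher in both inhibitor groups.

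RNA of most proteins that hold and fold the receptor fell. The list of receptor chaperones and co-chaperones holds 19 genes, all tested, Fkbp5 among them. With anti-IL-1b 14 fell and 1 rose, where 18.5% of all tested genes fell and 15.4% rose. With MCC950 13 fell and 3 rose, where 19.1% of all tested genes fell and 17.7% rose. The median log2 fold changes were -0.63 and -0.45, against 0.00 and 0.01 over all tested genes. Hsp90aa1, the inducible HSP90 itself, had 332 ± 3.88 CPM with anti-IL-1b and 398 ± 13.6 CPM with MCC950, against 1857 ± 38.9 CPM in untreated libraries (log2 fold changes -2.49 and -2.22). Hsp90ab1, its constitutive partner, fell by 1.45 and 1.16 log2 units, and Hspa8, the constitutive HSP70 that loads the receptor, by 1.24 and 0.96. The HSP40 co-chaperones Dnaja1 and Dnajb1 fell by 2.07 and 2.34 with anti-IL-1b and by 1.48 and 2.17 with MCC950. The genes that rose were Stub1, a ubiquitin ligase for chaperone clients (0.17 and 0.33), and, past the threshold with MCC950, Cdc37 (0.15) and Fkbp5, named after their values were seen. Between the inhibitors, 7.11% of all tested genes were lower with anti-IL-1b and 6.13% higher. Among the 19 listed genes, 14 were lower and none was higher. Of these genes 3 also stand on the list of immediate early and heat shock genes, of which 24 of 25 fell with each inhibitor (medians -2.34 and -2.22). Without Fkbp5 and those 3, 11 of 15 fell with anti-IL-1b and 10 of 15 with MCC950 (medians -0.45 and -0.32). The 15 are not free of heat shock protein genes, since Hsp90ab1, Hspa8 and Dnaja1 are not on that list and stay among them.

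Genes that supply the receptor with ligand went partly the other way. Hsd11b1, the enzyme that turns inactive 11-dehydrocorticosterone into corticosterone inside the cell, had 62.7 ± 0.349 CPM with anti-IL-1b and 71.6 ± 0.776 CPM with MCC950, against 50.0 ± 1.26 CPM in untreated libraries. It rose by 0.33 ± 0.06 log2 units with anti-IL-1b (edgeR adjusted p = 4.37e-05) and by 0.52 ± 0.06 with MCC950 (edgeR adjusted p = 4.76e-09), and the 3 groups did not overlap. H6pd, which makes the NADPH that enzyme needs, rose with anti-IL-1b, at 67.5 ± 5.85 CPM against 53.2 ± 2.32 CPM in untreated libraries (0.34 ± 0.07, edgeR adjusted p = 8.54e-05), and had 55.7 ± 2.02 CPM with MCC950 (0.07 ± 0.07, edgeR adjusted p = 0.480). Abcb1a, a pump that carries steroids out of cells, fell with anti-IL-1b (-0.46 ± 0.16, edgeR adjusted p = 0.0277), a call lost without anti-IL-1b replicate 1 (adjusted p = 0.112) or untreated replicate 1 (0.122). With MCC950 Abcb1a had a log2 fold change of -0.33 ± 0.16 (edgeR adjusted p = 0.108). Its twin Abcb1b had -0.00 ± 0.12 with anti-IL-1b and 0.18 ± 0.12 with MCC950 (edgeR adjusted p = 0.980 and 0.244).

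Among the other steroid receptors, Esr1, an oestrogen receptor, had log2 fold changes of 0.40 ± 0.30 and -0.21 ± 0.31 (edgeR adjusted p = 0.336 and 0.636). The mineralocorticoid receptor Nr3c2, which binds the same hormone with higher affinity, averaged 0.120 TPM with anti-IL-1b, 0.0667 TPM with MCC950 and 0.163 TPM in untreated libraries and was too low to test. Of the 12 genes of the list, Nr3c1 included, 7 were tested: 3 fell and 2 rose with anti-IL-1b, and 2 fell and 1 rose with MCC950. Over all tested genes 18.5% fell and 15.4% rose with anti-IL-1b, and 19.1% fell and 17.7% rose with MCC950. On both TPM scales none of the list fell and 2 rose with anti-IL-1b. With MCC950 1 fell and 1 rose on those scales, where library totals gave 2 lower and 3 higher.

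The coregulators through which the receptor acts on chromatin had medians near 0, though many of them passed the test. Of 18 genes 17 were tested, and 7 fell and 4 rose with anti-IL-1b, while 11 fell and none rose with MCC950. Over all tested genes 18.5% fell and 15.4% rose with anti-IL-1b, and 19.1% fell and 17.7% rose with MCC950. The split depends on the scale: library totals gave 4 lower and 6 higher with anti-IL-1b and 8 lower and 3 higher with MCC950, and log2(TPM + 1) gave 2 lower and 4 higher, and 5 lower and 1 higher. The median was -0.02 with anti-IL-1b, where it turned to as much as 0.14 under other scalings and units, and -0.13 with MCC950. Nrip1, a corepressor of nuclear receptors, fell by 0.54 ± 0.04 and 0.86 ± 0.04 log2 units (edgeR adjusted p = 5.89e-13 and 4.49e-19). The acetyltransferases Crebbp and Ep300 fell by 0.31 and 0.30 with anti-IL-1b and by 0.53 and 0.46 with MCC950, and Arid1a, a subunit of the BAF remodeller, by 0.25 and 0.32. On the log2(TPM + 1) scale Crebbp (-0.18), Ep300 (0.14) and Arid1a (-0.02) did not pass with anti-IL-1b, nor did Ep300 with MCC950 (-0.06). Those that rose with anti-IL-1b were Ncor1 (0.08), Carm1 (0.21), Smarca4 (0.23) and Hdac3 (0.24), named after their values were seen. Between the inhibitors 8 of the 17 were higher with anti-IL-1b and none was lower. Over all tested genes 6.13% were higher and 7.11% lower.

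Other genes known to rise with glucocorticoids fell in larger number than they rose. Of 36 listed genes 29 were tested: 20 fell and 3 rose with anti-IL-1b, and 18 fell and 2 rose with MCC950, with medians of -0.87 and -0.87. Over all tested genes 18.5% fell and 15.4% rose with anti-IL-1b, and 19.1% fell and 17.7% rose with MCC950. Without Dusp1, which also stands on the immediate early list, 19 of 28 fell with anti-IL-1b and 17 of 28 with MCC950. Several of the others are early response genes as well, which other stimuli also raise. Cxcr4, the chemokine receptor that retains T cells in bone marrow, had 31.9 ± 1.90 CPM with anti-IL-1b and 31.6 ± 1.68 CPM with MCC950, against 372 ± 1.10 CPM in untreated libraries (-3.54 ± 0.05 and -3.56 ± 0.05, edgeR adjusted p = 4.45e-39 and 2.39e-39). Dusp1, a phosphatase that ends MAP kinase signals, averaged 56.2 CPM with anti-IL-1b and 36.2 CPM with MCC950, against 565 CPM in untreated libraries. Rgs2, a brake on G protein signals, had 25.6 ± 2.49 and 20.4 ± 1.53 CPM, against 259.5 ± 7.53 CPM in untreated libraries.

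The rest of the named genes of that list also lay lower in both inhibitor groups. Per1, a clock gene with a glucocorticoid response of its own, fell by 2.69 and 2.65 log2 units, Irs2, an adaptor of the insulin receptor, by 2.15 and 2.35, and Rhob, a small GTPase, by 2.53 and 3.23. The antiproliferative genes Btg1 and Btg2 fell by 1.07 and 1.54 with anti-IL-1b and by 1.13 and 1.39 with MCC950. The genes that rose were named after their values were seen. Il7r, the receptor for the survival cytokine IL-7, passed with anti-IL-1b (0.15), at 649 ± 32.3 CPM, with 561 ± 17.5 CPM with MCC950 and 585 ± 10.8 CPM in untreated libraries. Anxa1, the annexin long tied to glucocorticoid action, averaged 0.856 CPM with anti-IL-1b and 0.802 with MCC950, against 0.0203 in untreated libraries. Lcn2, which also stands on the neutrophil list, averaged 1.32 and 0.591 CPM and was at 0 in untreated libraries.

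**Figure D4:**
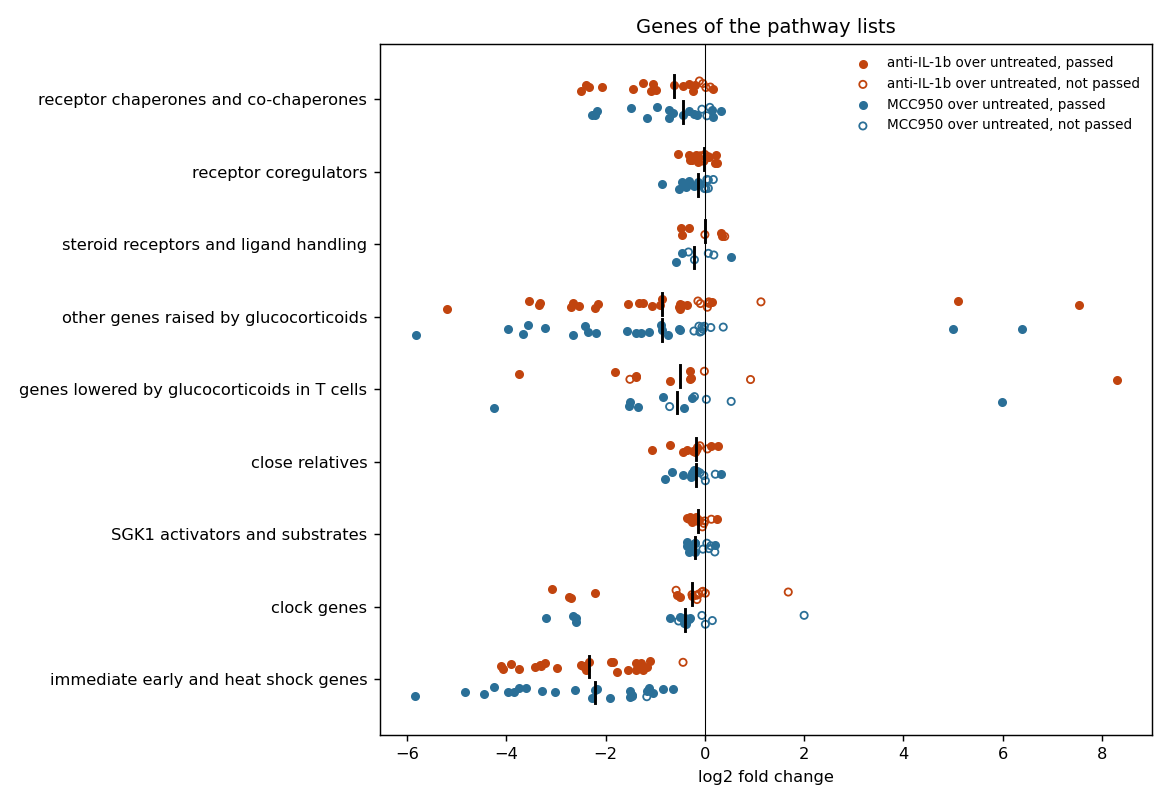
Log2 fold change (horizontal axis) of every tested gene of 9 lists, for anti-IL-1b over untreated (upper row of each list) and MCC950 over untreated (lower row); filled points passed the edgeR test, open ones did not, black bars are medians, and vertical scatter within a row has no meaning. Chaperones, glucocorticoid-raised genes and immediate early genes are spread to the left of 0 (medians -0.63, -0.87 and -2.34 with anti-IL-1b), while coregulators (-0.02) and SGK1 partners (-0.13) lie near it.

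Genes that glucocorticoids lower in T cells also fell more often than they rose. Of 19 listed genes 12 were tested, and 8 fell and 1 rose with anti-IL-1b and 7 fell and 1 rose with MCC950 (medians -0.51 and -0.57). Over all tested genes 18.5% fell and 15.4% rose with anti-IL-1b, and 19.1% fell and 17.7% rose with MCC950. Nr4a1, an orphan receptor of T cell receptor signalling, had 72.1 ± 2.35 CPM with anti-IL-1b and 50.9 ± 3.70 CPM with MCC950, against 963 ± 14.8 CPM in untreated libraries (-3.74 ± 0.04 and -4.24 ± 0.04, edgeR adjusted p = 9.75e-43 and 2.10e-44). Cd40lg, the helper ligand for B cells, fell by 1.39 and 1.52 log2 units, Egr1, an early response factor, by 1.39 and 1.51, and Rel, an NF-kB subunit, by 0.71 and 0.85. Nr4a1 and Egr1 also stand on the list of immediate early and heat shock genes, and the counts and medians given here include them. Ptgs2 was the gene that rose, named after its values were seen, and all 3 untreated libraries had it at 0.

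The relatives and partners of the members were nearer to 0. Of 14 close relatives 12 were tested, with 7 lower and 2 higher with anti-IL-1b and 7 lower and 1 higher with MCC950 (medians -0.18 and -0.18). Over all tested genes 18.5% were lower and 15.4% higher with anti-IL-1b, and 19.1% lower and 17.7% higher with MCC950. Tsc22d2, a paralog of Tsc22d3, fell by 0.70 ± 0.06 and 0.81 ± 0.06 log2 units (edgeR adjusted p = 2.13e-12 and 3.01e-14). Klf16 and Klf13, of the same subfamily as Klf9, fell by 1.07 and 0.23 with anti-IL-1b and by 0.67 and 0.27 with MCC950, though Klf13 did not pass on the log2(TPM + 1) scale (-0.02 and -0.08). Higher were Sgk3 (0.27) and Zbtb20 (0.13) with anti-IL-1b and Zbtb7b (0.33) with MCC950, named after their values were seen. Of the 13 activators and substrates of SGK1, 6 fell and 1 rose with anti-IL-1b and 7 fell and 1 rose with MCC950. Library totals gave 3 lower and 3 higher with anti-IL-1b and 6 lower and 4 higher with MCC950, and log2(TPM + 1) gave 1 lower and 2 higher, and 4 lower and 2 higher. The median of -0.13 with anti-IL-1b turned to 0.02 at the most under other settings. Pdpk1, the kinase that activates SGK1, fell by 0.30 ± 0.04 and 0.37 ± 0.04, and Foxo3, a transcription factor it phosphorylates, by 0.35 ± 0.05 and 0.36 ± 0.05. Rictor, a subunit of the mTOR complex that primes SGK1, fell by 0.14 ± 0.04 and 0.30 ± 0.04; the anti-IL-1b value was -0.09 by upper-quartile scaling, -0.01 by library totals and 0.02 in TPM, and passed in none of those. Mlst8, a subunit of the same complex, rose (0.25 and 0.21) and was named after its values were seen.

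Clock genes, many of which follow the daily glucocorticoid rhythm, fell or did not pass. Of 17 genes 16 were tested, 7 fell with anti-IL-1b and 10 with MCC950, and none rose (medians -0.26 and -0.41). Over all tested genes 18.5% fell and 15.4% rose with anti-IL-1b, and 19.1% fell and 17.7% rose with MCC950. Beside Per1, Nfil3, a repressor of the clock output, had 1.89 ± 0.494 CPM with anti-IL-1b and 1.74 ± 0.809 CPM with MCC950, against 15.9 ± 2.20 CPM in untreated libraries. Nr1d2, a REV-ERB repressor, fell by 0.57 and 0.71. Per2 had log2 fold changes of -0.12 and 0.01 and Dbp 0.01 and 0.15, none of which passed; both were named after their values were seen. The labels used here do not give the hour of sampling.

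The genes whose pattern over the 9 libraries was most like that of each member were found by the root mean square difference of log2 CPM, each gene set to its own mean, among genes averaging 4 or more log2 CPM and leaving out predicted genes, pseudogenes and receptor segments. Nearest to Nr3c1 were Crtc3, Tcf12 and Ccnl1, at 0.033, 0.036 and 0.04 log2 units. Nearest to Tsc22d3 were Zrsr1, Zfp281 and Ifngr1, at 0.047, 0.049 and 0.062, with 1 gene left out by that rule ahead of Ifngr1. Nearest to Fkbp5 were Ddx19b, Msl1 and Clcn4, at 0.035, 0.037 and 0.037. Sgk1 was most like Mat2a, Dusp2 and Mcl1, at 0.078, 0.08 and 0.09. These were lower with anti-IL-1b than with MCC950 (-0.32, -0.32 and -0.21). Because they were chosen by likeness to Sgk1 in the same libraries, that shared direction is no separate result. Klf9, low and so noisier, was most like Csrnp1, Dusp10 and Per1, at 0.221, 0.23 and 0.231.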

How the data were processed

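Polyadenylated RNA of spleen naive CD4+ T cells was sequenced in 3 anti-IL-1b, 3 MCC950 and 3 untreated libraries, made with a directional kit per the labels' protocols and grouped by the labels alone. The authors used STAR and RSEM on mm10, without versions, per the submitters' processing notes; strand handling in counting is not stated in those notes. In the deposited tables the expected counts estimate how many reads each gene received, the deposited TPM values are scaled by effective length to one common total, and the deposited lengths are means over a gene's transcripts weighted by abundance, per the file headers. FPKM, also deposited, did not enter any result. Gene IDs were matched to GENCODE M21, and 99.5% had a symbol.

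Expected counts were rounded and tested in 1 fit of 3 group means by the quasi-likelihood test of edgeR (version 4.0.16, R 4.3.3; TMM, filterByExpr, robust), leaving 13374 genes; p-values are two-sided and adjusted by the Benjamini-Hochberg method over all of them, with a threshold of 0.05. CPM are TMM-scaled. The common coefficient of variation between libraries was 0.0707. The test was checked on simulated counts. limma 3.58.1 and DESeq2 1.42.0 served as alternatives. Lengths were compared by exact permutation. No 2 libraries agreed within sampling noise.

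Members and lists were chosen with earlier results of these data known. Named were all members; of each list, the genes with the smallest p over the comparisons with untreated libraries (8 glucocorticoid-raised, 5 chaperones, 4 coregulators, 4 glucocorticoid-lowered, 4 relatives, 3 SGK1 partners, 3 clock genes); every steroid receptor or ligand gene with a TPM of at least 1 in a group, 1 of which is not reported here; and the 3 genes most like each member, passing over predicted genes, pseudogenes and receptor segments. Sequences are from RefSeq (GRCm38.p6), cut to the 250 bases before each start.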

Additional observations from a re-analysis of the deposited data

Results flagged for a closer look

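2 members differed between the inhibitors, which share their untreated libraries, by a direct test of one inhibitor against the other. Sgk1 was lower with anti-IL-1b than with MCC950, by a log2 difference of -0.38 ± 0.06, in 3 of 3 libraries against 3 of 3 (edgeR's quasi-likelihood test, adjusted p = 1.89e-05). Nr3c1 was higher with anti-IL-1b than with MCC950, by 0.14 ± 0.04 (edgeR adjusted p = 0.0160), again with no overlap in CPM. In TPM the Nr3c1 libraries overlapped, at 48.4 to 56.0 with anti-IL-1b and 44.1 to 50.8 with MCC950.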

How the results depend on the processing

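Each result was recomputed under 21 alternatives, 12 of them other settings and 9 leaving out 1 library each. Of 315 values of the members 293 kept their direction and side of the threshold, 13 no longer passed, 6 newly passed and 3 changed sign; of 2100 of the other named genes, 2034 kept both. Tsc22d3, Sgk1 and Klf9 fell with both inhibitors, and Nr3c1 with MCC950, in all 21.

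Library totals gave 1344 genes lower and 3929 higher with anti-IL-1b over untreated and 1587 lower and 4009 higher with MCC950, against 2479 and 2066, and 2552 and 2369, as reported. Upper-quartile scaling gave 1941 lower and 2687 higher with anti-IL-1b and 2211 lower and 2859 higher with MCC950. On the log2(TPM + 1) and the unfiltered log2(TPM + 0.1) scales, 837 and 786 genes were lower with anti-IL-1b, 1067 and 981 with MCC950, 207 and 149 lower with anti-IL-1b than with MCC950, and 366 and 284 higher. Leaving out a library gave 2137 to 2448 lower and 1751 to 2119 higher with anti-IL-1b, 2199 to 2600 lower and 2002 to 2421 higher with MCC950, and 663 to 961 lower and 583 to 810 higher between the inhibitors.

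On both TPM scales Nr3c1 no longer passed with anti-IL-1b over untreated (-0.18) or between the inhibitors (0.18; 0.12 to 0.16 leaving out a library). Tsc22d3 between the inhibitors newly passed with upper-quartile scaling and library totals (0.11) and DESeq2 (0.10; 0.07 to 0.12 leaving out a library). Fkbp5 with anti-IL-1b newly passed with library totals (0.23) and log2(TPM + 1) (0.33; 0.07 to 0.14 leaving out a library). Fkbp5 with MCC950 no longer passed with a filter of 1 count (0.17, adjusted p = 0.0531; 0.13 to 0.19 leaving out a library). Klf9 between the inhibitors, not called, changed sign in TPM (0.02 and 0.05; leaving out a library, -0.39 to 0.01). The cause was not tested.

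Values of other named genes also changed sign. Ep300 and Rictor, both called lower with anti-IL-1b (-0.30 and -0.14), turned to 0.14 and 0.02 in TPM, where neither passed. Esr1 with MCC950, not called, changed sign in unfiltered TPM (0.01, and -0.39 to 0.21 leaving out a library). Abcb1b with anti-IL-1b, not called either, had 0.00 by RLE scaling, DESeq2, both TPM scales and its own 6 libraries. It had 0.04 by upper quartile, 0.12 by library totals, and -0.07 to 0.04 leaving out a library.

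In their deviations from the group means, same-numbered libraries correlated at -0.01 to 0.063 over 9 pairs, and differently numbered ones at -0.057 to 0.025. All same-numbered pairs but that of anti-IL-1b and MCC950 replicate 1 (-0.01) were positive, and most differently numbered pairs were negative. Such low values neither show nor exclude a pairing by number, which the labels do not state. With the replicate number as a block, 2449 genes were lower and 2034 higher with anti-IL-1b and 2519 lower and 2336 higher with MCC950. Among the members Fkbp5 with MCC950 alone then changed its call (0.17, edgeR adjusted p = 0.0510). Depth limits Klf9 and Zbtb16 most.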
